A study of Mus musculus with 12 samples.

Results

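The interferon response and nucleic acid sensing genes described here are 41 symbols taken from a list of regulators, feedback inhibitors, sensors and adaptors, antiviral effectors, ubiquitin and ADP-ribosyl ligases, immunity-related GTPases and other interferon-induced genes. All 41 were found among the 35976 genes of the RNA sequencing table. Members were matched by symbol, and no measured value enters the rule, but the list was chosen with earlier results of these data known. RNA was measured in mouse embryonic stem cells (mESC) that were wild type for Proser1 (WT), in PROSER1 knockout cells (KO) and in KO cells re-expressing Proser1 (KO+Rescue), each as mESC (day 0) and after 2 days in N2B27, which gave 6 groups of 2 libraries. PROSER1 binds TET enzymes, the oxidases of methylated cytosine. All cells, WT included, descended from TET2 fl/fl blastocysts, that is, from animals with floxed alleles of Tet2. The mESC were grown without feeder cells on gelatin in serum with LIF and inhibitors of GSK3 and MEK, and the day 2 cells in serum-free N2B27 medium on gelatin for 48 hours, which directs mESC towards neural cells. The KO line was a single clone made with a guide to exon 1, and KO+Rescue was a further clone of it carrying a PiggyBac insertion of FLAG-tagged Proser1 selected with blasticidin, so genotype and clone cannot be told apart. Per the labels each group holds 2 biological replicates. How their cultures were separated is not stated, and p-values speak only of the spread among the libraries sequenced. In bulk RNA, fewer expressing cells and less RNA per cell cannot be told apart.

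Interferons are secreted proteins that bind receptor pairs on the cell surface and act through the kinases JAK1, JAK2 and TYK2. Type I interferon leads to a complex holding STAT2 and IRF9 that binds the interferon-stimulated response element (ISRE), whereas type II interferon acts on genes through the gamma-activated sequence (GAS). Cells make type I interferon after foreign or misplaced RNA is sensed by RIG-I (Ddx58) or MDA5 (Ifih1), which signal through Mavs, or after DNA is sensed by cGAS (Mb21d1), which signals through STING (Tmem173). Pluripotent stem cells are known for a weak response to interferon and for expressing some antiviral genes without it, and the response strengthens as they differentiate.

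Promoter windows of 300 bases, from 250 before to 50 after a RefSeq start site (GRCm38.p6), were available for 32 of the 41 members and were searched on both strands for the ISRE core, which is GAAA, any 2 bases and GAAA again, and for GAS, TTCNNNGAA, which is its own reverse complement. The ISRE core was found in 17 of 32 members against 3.99% of all genes with a window, and GAS in 12 of 32 against 9.55%. By the KO against WT comparison at day 2 described below, the ISRE core was in 7 of the 12 members with a window that were lower in KO and in 7 of the 15 that were tested and not called. GAS was in 4 of those 12 and in 6 of those 15. Of the members with an ISRE core, Ifih1 and Isg15 (lower) and Rsad2 (not called) reached the level needed for testing only through the WT day 2 libraries. They do not add support to these counts. A match describes letters only and does not show binding. The windows of 5 members that were lower in KO at day 2, and that of Ifitm3, which holds both motifs and was not called in that comparison, are given 5′ to 3′ along the gene, with the matched letters in capitals.

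Irf1 (chr11:53769764-53770063, + strand, GAS): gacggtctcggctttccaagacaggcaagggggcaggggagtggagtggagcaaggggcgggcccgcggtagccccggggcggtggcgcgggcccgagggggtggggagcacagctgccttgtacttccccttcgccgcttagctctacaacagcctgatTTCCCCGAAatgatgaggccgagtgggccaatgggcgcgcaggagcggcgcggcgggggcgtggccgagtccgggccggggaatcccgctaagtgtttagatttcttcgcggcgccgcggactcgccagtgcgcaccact

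Igtp (chr11:58199306-58199605, + strand, GAS then ISRE core): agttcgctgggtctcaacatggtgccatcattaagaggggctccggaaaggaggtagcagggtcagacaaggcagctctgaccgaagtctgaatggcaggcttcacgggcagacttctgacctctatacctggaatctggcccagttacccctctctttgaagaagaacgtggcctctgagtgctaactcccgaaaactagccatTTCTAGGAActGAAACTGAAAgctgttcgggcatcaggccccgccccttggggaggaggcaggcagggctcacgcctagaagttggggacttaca

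Irgm2 (chr11:58214727-58215026, + strand, GAS then ISRE core): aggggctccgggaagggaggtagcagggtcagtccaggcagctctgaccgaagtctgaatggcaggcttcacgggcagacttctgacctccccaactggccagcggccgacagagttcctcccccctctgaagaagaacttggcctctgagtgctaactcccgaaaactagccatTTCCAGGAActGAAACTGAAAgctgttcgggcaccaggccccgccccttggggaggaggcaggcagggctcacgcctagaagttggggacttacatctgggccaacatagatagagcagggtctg

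Irgm1 (chr11:48871371-48871670, - strand, 2 overlapping ISRE cores): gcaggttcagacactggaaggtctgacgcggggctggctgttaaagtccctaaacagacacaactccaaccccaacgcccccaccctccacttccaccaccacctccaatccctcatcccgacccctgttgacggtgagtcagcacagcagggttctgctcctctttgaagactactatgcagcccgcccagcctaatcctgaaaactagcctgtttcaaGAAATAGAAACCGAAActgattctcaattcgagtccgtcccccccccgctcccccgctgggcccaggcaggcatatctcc

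Isg15 (chr4:156200769-156201068, - strand, 3 overlapping ISRE cores): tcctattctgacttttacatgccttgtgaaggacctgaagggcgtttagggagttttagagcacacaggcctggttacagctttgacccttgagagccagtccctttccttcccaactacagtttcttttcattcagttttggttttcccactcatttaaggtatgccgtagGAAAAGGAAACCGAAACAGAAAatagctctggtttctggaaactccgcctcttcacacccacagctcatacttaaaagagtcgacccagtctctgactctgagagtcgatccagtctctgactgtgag

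Ifitm3 (chr7:141010695-141010994, - strand, ISRE core, GAS and ISRE core, the last pair overlapping): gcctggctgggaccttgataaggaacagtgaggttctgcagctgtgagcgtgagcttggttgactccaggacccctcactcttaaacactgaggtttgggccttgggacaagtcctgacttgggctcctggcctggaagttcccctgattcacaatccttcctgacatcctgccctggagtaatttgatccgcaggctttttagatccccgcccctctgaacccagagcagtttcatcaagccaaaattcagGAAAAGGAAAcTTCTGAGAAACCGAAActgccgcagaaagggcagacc

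Igtp and Irgm2 are neighbours on chromosome 11, separated by 7384 bases, and their windows share an unbroken run of 61 bases, so their matches are not separate observations. In both, the GAS match came just before the ISRE core, at positions -45 and -34 from the start site in Igtp and at -75 and -64 in Irgm2. In Irgm1 the ISRE cores began at -30 and -24, and in Isg15 at -78, -72 and -66. The GAS match of Irf1 began at -90, and the other Irf1 window in RefSeq held neither motif. The windows of Oasl2, Trim25 and Dtx3l, which were also lower in KO at day 2, held neither motif.

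**Figure D1:**
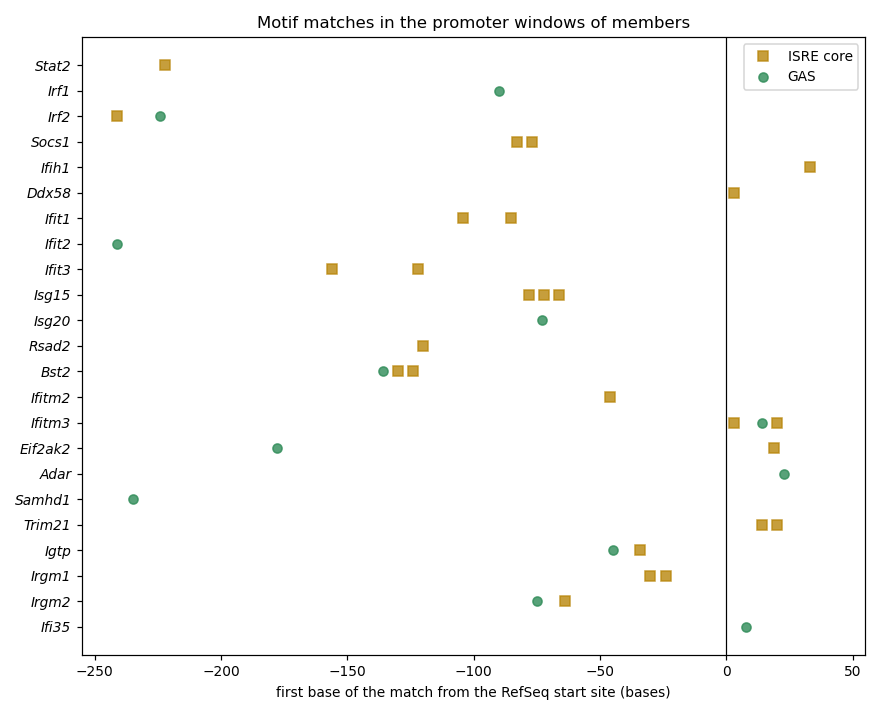
First base of each ISRE core (squares) and GAS (circles) match in the promoter windows of the members with at least 1 match, in bases from the RefSeq start site (horizontal axis, line at the start site). Matches of Irgm1, Igtp, Irgm2, Isg15 and Socs1 lay within 100 bases before the start site.

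The libraries held 38634668 to 66450803 assigned read pairs, a ratio of 1.72. Values are normalised read counts, given for replicates A and B in that order. Proser1 RNA is no check of the knockout, since an edit in exon 1 need not remove the transcript: it was 889 and 550 in WT, 576 and 502 in KO cells and 2830 and 3090 in KO+Rescue mESC, and 829 and 685, 872 and 1070, and 3040 and 2990 at day 2. All 6 listed stem cell markers fell and all 5 listed day 2 markers rose from mESC to day 2 in each genotype, with Nanog at 30700 to 45800 in mESC and 518 to 1690 at day 2, and the early epiblast gene Fgf5 at 8.90 to 38.1 and 1450 to 5640. At day 2 the stem cell marker Nanog and the day 2 markers Fgf5, Otx2 and Sox1 were called higher in KO than in WT, and the stem cell marker Esrrb was called lower. Nanog held 518 and 865 in WT, 1690 and 1620 in KO cells and 590 and 564 in KO+Rescue. Esrrb held 357 and 307, 103 and 126, and 90.3 and 131, and Sox1 held 44.2 and 37.0, 140 and 154, and 181 and 178. KO+Rescue thus overlapped WT in Nanog, but stood away from WT with KO in Esrrb and Sox1. The part of these markers in the results was not tested. Of 10 markers of blood and immune cells, which express many members strongly, Adgre1 was at 0 in every library, and Tyrobp, Lyz2 and Csf1r did not exceed 4.48. Ptprc, the general leukocyte marker, did not exceed 13.5, a value reached in KO at day 2. The summed level of the 10 markers was 328 to 368 in WT, 351 to 374 in KO cells and 261 to 269 in KO+Rescue mESC. At day 2 it was 222 to 272 in WT, 201 to 217 in KO cells and 168 to 172 in KO+Rescue, so that it was lower in both KO and KO+Rescue. In mESC Cd68 held the largest part of the sum, at 154 to 255, and Cd3e and Cd79a reached 99.7 and 54.3. At day 2 the fitted changes of Cd68, Cd3e and Cd79a between KO and WT were negative and that of Itgam positive, none of them called. Itgam held 43.0 and 56.5 in WT, 68.0 and 68.1 in KO cells and 77.4 and 58.2 in KO+Rescue at day 2. The summed level of 8 fibroblast markers was 385 to 465 in WT, 174 to 212 in KO cells and 134 to 182 in KO+Rescue mESC, and 1130 to 1270, 1490 to 1640, and 753 to 760 at day 2. Thy1 held most of that sum in mESC and was called lower in KO there (-1.56, adjusted p = 0.000515), and Lum did not exceed 2.17 in any library. The part of the immune and fibroblast markers in the results was not tested.

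At day 2 part of the interferon response genes were lower in KO than in WT cells. Of the 41 members, 34 reached a mean normalised count of 10 over all libraries and were tested with limma, and 16 of these were lower and 0 higher in KO (adjusted p under 0.05). Among all 15341 tested genes 5.21% were called, 3.64% as lower and 1.57% as higher. The median log2 change of the members was -0.92, against 0.02 over all tested genes. In 25 of the 34 members both KO libraries lay below both WT libraries, as they did in 24.6% of all tested genes. Ifih1, Isg15 and Rsad2 passed the filter only through the WT day 2 libraries and had to differ, so they do not add to the count as support. Without them 14 of 31 members were lower, with a median of -0.72. Leaving out 1 library left 1 in a group, and fewer members and fewer of all tested genes were then called lower. The median of the 34 members was -0.87 without KO replicate A and -0.89 without WT replicate A. It was -0.87 without WT replicate B or KO replicate B. The viral entry inhibitor Ifitm2 was called higher in KO without WT replicate B (adjusted p = 0.00416) and not when another library was left out.

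By role, the members called lower at day 2 were 2 of 4 tested regulators, the single tested feedback inhibitor, 3 of 7 sensors and adaptors (2 of 6 without Ifih1), 2 of 11 antiviral effectors (1 of 9 without Isg15 and Rsad2), 4 of 5 ubiquitin and ADP-ribosyl ligases, 3 of 3 immunity-related GTPases and 1 of 3 other genes. The median log2 changes were -0.49 for regulators, -0.73 for sensors and adaptors without Ifih1, -0.28 for effectors with or without Isg15 and Rsad2, -0.90 for ligases and -2.22 for the GTPases. These are descriptions of short lists, and no difference between roles was tested.

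**Figure D2:**
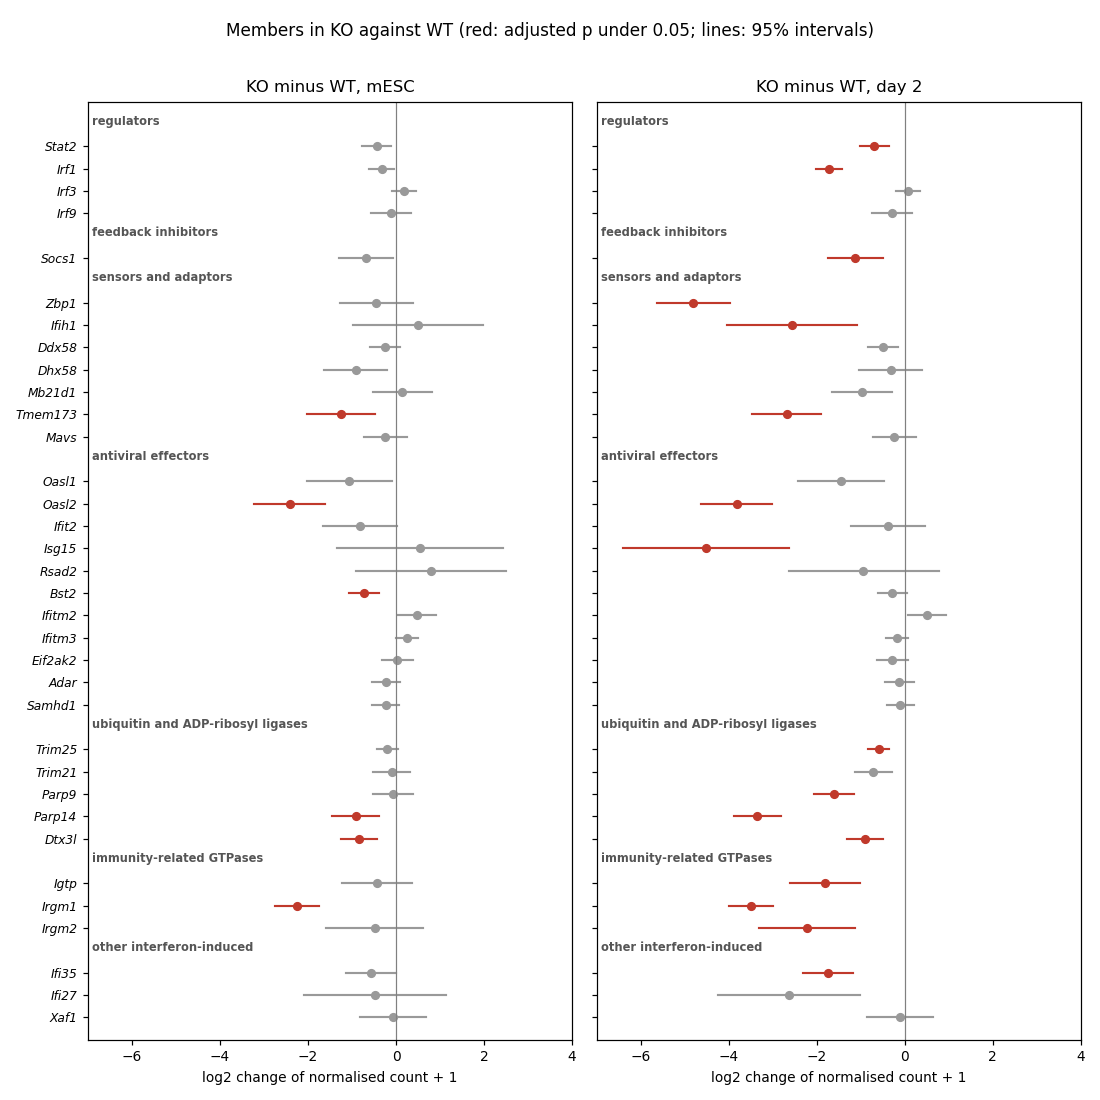
Log2 change between KO and WT (horizontal axes, log2 of the normalised count plus 1) of the 34 tested members, by role, in mESC (left) and at day 2 (right), with points for the fitted change, lines for its 95% interval and red for an adjusted p under 0.05. In mESC 6 members were called and at day 2 16, all lower in KO, and the widest intervals belong to the low genes Isg15 and Rsad2.

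Among the 4 tested regulators, Irf1 had the largest fitted difference at day 2. IRF1 is a transcription factor that switches on interferon-response genes and is itself induced by type II interferon through a GAS element. Its normalised count at day 2 was 2230 and 2710 in WT, 725 and 768 in KO cells and 558 and 480 in KO+Rescue. In mESC it was 1340 and 1380 in WT, 1050 and 1110 in KO cells and 1040 and 1010 in KO+Rescue. All KO and KO+Rescue libraries lay below the WT libraries of their stage, and the difference was larger at day 2 by the interaction given below. The day 2 difference between KO and WT was 3.29-fold (log2 -1.72 ± 0.13, SE, adjusted p = 8.58e-06), and the mESC difference was -0.33 ± 0.13 (adjusted p = 0.13). 

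Stat2, a transcription factor of the type I response, was also lower in KO at day 2. It held 430 and 384 in WT, 291 and 308 in KO cells and 376 and 374 in KO+Rescue mESC. At day 2 it held 358 and 372 in WT, 230 and 221 in KO cells and 238 and 229 in KO+Rescue. The KO libraries were the lowest in mESC, and KO and KO+Rescue overlapped below WT at day 2. The difference from WT was -0.69 ± 0.15 at day 2 (adjusted p = 0.0186). It no longer passed without WT replicate A or B (adjusted p = 0.0587 and 0.0679) or without KO replicate A or B (0.105 and 0.158), or with only the KO and WT day 2 libraries in the fit (adjusted p = 0.1). In mESC it was -0.44 ± 0.15 (adjusted p = 0.0842).

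Irf3 and Irf9 were not called between KO and WT at either stage. Irf3, which is activated by the sensors and starts interferon transcription, held 1250 and 1340 in WT, 1510 and 1450 in KO cells and 1570 and 1480 in KO+Rescue mESC, and 775 and 901, 932 and 835, and 852 and 910 at day 2. Its log2 difference at day 2 was 0.08, with a 95% interval from -0.20 to 0.35. Irf9, the DNA-binding subunit of the type I complex, held 830 and 813 in WT, 789 and 739 in KO cells and 824 and 801 in KO+Rescue mESC, and 108 and 159, 106 and 108, and 73.9 and 51.7 at day 2. Its difference at day 2 was -0.29, with an interval from -0.75 to 0.17. In all genotypes the mESC libraries of both genes lay above the day 2 libraries.

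Irf7 and Irf2 were too low to test. Irf7, which amplifies interferon production, was at 5.93 and 0 in WT and at 0 in all KO and KO+Rescue mESC libraries, and at 2.42 and 2.90, 0 and 0.748, and 0 and 1.88 at day 2. Irf2, an IRF1 antagonist at many promoters, was at 0 and 2.04 in WT, 2.24 and 0 in KO cells and 1.05 and 0 in KO+Rescue mESC, and at 9.08 and 4.35, 6.65 and 10.5, and 1.17 and 3.76 at day 2. Its WT and KO values overlapped at both stages.

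Of the feedback inhibitors, Socs1, which blocks JAK kinases, was lower in KO at day 2. It held 74.7 and 88.5 in WT, 65.0 and 39.1 in KO cells and 56.5 and 55.2 in KO+Rescue mESC, and 157 and 128, 69.4 and 60.6, and 55.1 and 64.8 at day 2. WT lay above the other genotypes at both stages. The day 2 change was -1.12 ± 0.29 (adjusted p = 0.0407), and it did not pass without WT replicate A or B (adjusted p = 0.191 and 0.0653) or without KO replicate A or B (0.155 and 0.277), nor with only the KO and WT libraries in the fit (0.0647). Usp18, which removes ISG15 from proteins and restrains the type I receptor, did not exceed 7.97 in any library and was not tested.

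Of the sensors, Zbp1 had the largest fitted difference at day 2. ZBP1 binds Z-form nucleic acid and can trigger necroptosis. Its normalised count was 65.2 and 62.1 in WT, 47.1 and 45.9 in KO cells and 27.2 and 33.8 in KO+Rescue mESC. At day 2 it was 130 and 146 in WT, 2.95 and 5.24 in KO cells and 4.69 and 2.82 in KO+Rescue. Both WT libraries lay higher at day 2 than in mESC, and all KO and KO+Rescue libraries lay lower. The log2 change between KO and WT at day 2 was -4.80 ± 0.38 (adjusted p = 9.74e-06), and the call held under every alternative tried. In mESC the difference was -0.45 ± 0.38 (adjusted p = 0.45).

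Tmem173, which encodes the DNA-sensing adaptor STING, was lower in KO at both stages. It held 183 and 179 in WT, 74.0 and 76.9 in KO cells and 74.2 and 51.6 in KO+Rescue mESC, and 199 and 118, 21.4 and 24.7, and 11.7 and 24.4 at day 2. KO and KO+Rescue overlapped each other and lay below WT at both stages. The change was -2.68 ± 0.36 at day 2 (6.42-fold, adjusted p = 0.000772). In mESC it was -1.25 ± 0.36 (adjusted p = 0.0475), which did not pass without WT replicate A or B (adjusted p = 0.198 and 0.0653), without KO replicate A or B (0.145 and 0.199), or with only the KO and WT libraries in the fit (0.0574). The mouse cGAS gene Mb21d1, which makes the second messenger that STING binds, was at 62.3 and 97.1 in WT, 44.3 and 34.4 in KO cells and 76.3 and 68.6 in KO+Rescue at day 2. Its KO libraries were the lowest, but the difference of -0.98 did not pass the test in limma (adjusted p = 0.099, 95% interval -1.65 to -0.30), while DESeq2 called it (adjusted p = 0.0404).

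Of the RNA sensors, Ifih1 (MDA5) was called at day 2 at a low level. It held 36.9 and 57.2 in WT, 5.91 and 8.23 in KO cells and 5.87 and 2.82 in KO+Rescue at day 2, and 5.93 and 3.05, 10.1 and 4.05, and 0 and 0 in mESC. The WT day 2 libraries lay above all others. The change of -2.56 ± 0.68 (adjusted p = 0.0488) did not pass without WT replicate A or B (adjusted p = 0.133 and 0.194) or without KO replicate A or B (0.261 and 0.204), or without the filter on low values (0.0594). Ddx58 (RIG-I) and its regulator Dhx58 were not called at day 2 by limma, at -0.49 (interval -0.83 to -0.15, adjusted p = 0.103, and 0.0482 without WT replicate B) and -0.31 (interval -1.03 to 0.40). Mavs, the shared adaptor, was at -0.24 at both stages, with intervals from -0.73 to 0.25.

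Most antiviral effectors did not pass the test. Oasl2, a 2'-5' oligoadenylate synthetase-like protein, was lower in KO at both stages: its normalised count was 39.1 and 41.7 in WT, 5.60 and 8.09 in KO cells and 2.09 and 3.56 in KO+Rescue mESC, and 557 and 388, 31.8 and 32.2, and 28.2 and 29.1 at day 2. The gene was higher at day 2 in every genotype, and the KO and KO+Rescue day 2 libraries still lay below the WT mESC libraries. The change between KO and WT was -3.82 ± 0.37 at day 2 (adjusted p = 5.46e-05), a call that every alternative kept. In mESC it was -2.42 ± 0.37 (adjusted p = 0.00193), and 0.0523 when the fit held no other groups. Its neighbour Oasl1, 10897 bases away on chromosome 5, was at -1.45 ± 0.45 at day 2 and was not called by limma (adjusted p = 0.0876), while edgeR and DESeq2 called it (adjusted p = 0.0453 and 0.0286), as did limma with a pseudocount of 8 (0.0384).

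Isg15, a ubiquitin-like protein that is conjugated to other proteins in the response, was low even where it was highest. It held 50.8 and 76.8 in WT, 0 and 6.73 in KO cells and 3.52 and 2.82 in KO+Rescue at day 2, and 4.74 and 8.14, 13.4 and 6.74, and 0 and 0 in mESC. The WT day 2 libraries lay above all others. The day 2 change between KO and WT was -4.51 ± 0.87 (adjusted p = 0.00926), and it did not pass without KO replicate A (adjusted p = 0.0888) or WT replicate B (0.0586). At so low a level the size of a log2 change depends on the pseudocount of 1.

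Bst2 (tetherin), which holds budding virus at the cell surface, was called lower in KO in mESC and not at day 2. It held 1600 and 1710 in WT, 954 and 1050 in KO cells and 981 and 1010 in KO+Rescue mESC, and 2530 and 3450, 2600 and 2290, and 2690 and 3190 at day 2. The groups were apart in mESC and overlapped at day 2. The differences were -0.72 ± 0.15 (adjusted p = 0.0126) in mESC and -0.28 ± 0.15 at day 2 (adjusted p = 0.367), and the interaction of KO and stage was not called (0.45 ± 0.22, adjusted p = 0.415). The mESC call did not hold without KO replicate A or B (adjusted p = 0.0853 and 0.0581) or when the fit held no other groups (0.0632). 

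The other effectors that were tested were not called between KO and WT at day 2. Adar, Samhd1, Eif2ak2 and Ifitm3, which edit RNA, deplete nucleotides, halt translation and block viral entry, were at -0.12, -0.11, -0.28 and -0.18 with standard errors of 0.11 to 0.16. Ifitm2 was at 0.51 ± 0.20 (adjusted p = 0.2, and 0.0364 under the replicate block), the highest log2 difference of any tested member. Ifit2 was at -0.39 ± 0.39 and Rsad2 (viperin) at -0.94 ± 0.79. Ifit1, Ifit3 and Isg20 were not tested: their highest values were 9.08, 4.24 and 16.7, each in a WT day 2 library.

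Of the ubiquitin and ADP-ribosyl ligases, Parp14 had the largest fitted difference at day 2. PARP14 attaches single ADP-ribose units to proteins. It held 166 and 144 in WT, 71.7 and 91.7 in KO cells and 92.0 and 76.6 in KO+Rescue mESC, and 332 and 284, 25.9 and 32.9, and 46.9 and 47.9 at day 2. From mESC to day 2 it went up in WT and down in both other genotypes. KO lay 10.2-fold below WT at day 2 (log2 -3.35 ± 0.25, adjusted p = 4.77e-06), a call that every alternative kept. The mESC change was -0.92 ± 0.25 (adjusted p = 0.0357), which did not pass without WT replicate A (adjusted p = 0.203) or either KO library (0.167 without A and 0.0903 without B), with only the KO and WT libraries (0.124), or without the filter (0.071).

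Parp9 and Dtx3l encode partners in one ubiquitin ligase complex. Parp9 held 1190 and 1730 in WT, 1310 and 1440 in KO cells and 1400 and 1410 in KO+Rescue mESC, and 1130 and 1700, 452 and 452, and 593 and 443 at day 2. Its groups overlapped in mESC and were apart at day 2. Dtx3l held 569 and 547 in WT, 314 and 310 in KO cells and 366 and 272 in KO+Rescue mESC, and 771 and 721, 386 and 411, and 462 and 326 at day 2. The Dtx3l libraries of KO and KO+Rescue lay below WT at both stages. The day 2 changes between KO and WT were -1.61 ± 0.21 for Parp9 (adjusted p = 0.000672, kept under every alternative) and -0.90 ± 0.19 for Dtx3l (adjusted p = 0.014), and the mESC changes were -0.07 ± 0.21 (adjusted p = 0.853) and -0.84 ± 0.19 (adjusted p = 0.0165). The Dtx3l call did not hold at day 2 without WT replicate A (adjusted p = 0.0606) or either KO library (0.125 without A and 0.0934 without B). In mESC it did not hold without WT replicate A (0.0902), KO replicate A or B (0.0729 and 0.109), or other groups in the fit (0.0667). The annotated spans of the genes overlap by 558 bases on chromosome 16, and the strand setting of the counting was not stated, so reads in the overlap cannot be assigned with certainty.

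Trim25, the ubiquitin ligase that activates RIG-I, held 10700 and 10200 in WT, 9290 and 8880 in KO cells and 8810 and 8100 in KO+Rescue mESC, and 3610 and 3590, 2270 and 2510, and 1770 and 1690 at day 2. KO lay 1.51-fold below WT at day 2 (log2 -0.59 ± 0.11, adjusted p = 0.00772). The call did not hold without KO replicate A (adjusted p = 0.108) or with only the KO and WT day 2 libraries (0.0729). Trim21, a cytosolic antibody receptor, was at -0.72 ± 0.20 and was not called by limma (adjusted p = 0.0527), while edgeR and DESeq2 called it (adjusted p = 0.0339 and 0.00817), as did limma with a pseudocount of 8 (0.0422), equal library totals (0.0456) and the replicate block (0.0306).

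The immunity-related GTPases, which act on the membranes of vacuoles that hold pathogens, were all lower in KO at day 2. Irgm1 held 293 and 308 in WT, 57.1 and 67.4 in KO cells and 40.8 and 55.2 in KO+Rescue mESC, and 671 and 605, 56.1 and 54.6, and 36.4 and 42.3 at day 2. It rose from mESC to day 2 in WT and was not called by limma between the stages in KO or KO+Rescue. Its change between KO and WT was -3.50 ± 0.23 at day 2 (11.3-fold, adjusted p = 1.9e-06) and -2.26 ± 0.23 in mESC (4.78-fold, adjusted p = 0.000134), and both calls held under every alternative. It was the only member of which both held throughout.

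Igtp held 68.8 and 54.9 in WT, 49.3 and 41.8 in KO cells and 47.1 and 17.8 in KO+Rescue mESC, and 285 and 294, 87.9 and 76.3, and 30.5 and 32.9 at day 2. Irgm2 held 46.2 and 18.3, 31.4 and 13.5, and 9.41 and 8.90 in mESC, and 148 and 151, 34.7 and 28.4, and 10.6 and 5.64 at day 2. In both genes the order at day 2 was WT, KO and KO+Rescue, with no overlap. KO lay below WT at day 2 by -1.81 ± 0.37 in Igtp (adjusted p = 0.0129) and -2.22 ± 0.51 in Irgm2 (adjusted p = 0.0242). Igtp was not called without KO replicate A or B (adjusted p = 0.079 and 0.129), and Irgm2 not without WT replicate A or B (0.0881 and 0.0743), KO replicate A or B (0.117 and 0.2) or the filter (0.0655). The mESC differences of -0.43 and -0.48 were not called.

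Ifi35, which binds its relative Nmi and was the only called gene of the last group, held 371 and 499 in WT, 244 and 344 in KO cells and 224 and 258 in KO+Rescue mESC, and 490 and 740, 217 and 147, and 90.3 and 101 at day 2. The day 2 libraries fell into the order WT, KO and KO+Rescue without overlap. KO lay 3.35-fold below WT (log2 -1.75 ± 0.26, adjusted p = 0.00167), which every alternative kept. Ifi27, a mitochondrial protein gene, was at -2.63 ± 0.74 and not called by limma (adjusted p = 0.0608), but it was called by DESeq2 (0.0337), with a pseudocount of 8 (0.0379), with equal totals (0.0454), under the replicate block (0.0201) and without KO replicate B (0.0183). Xaf1, a pro-apoptotic gene, was at -0.10 ± 0.35. Rtp4, a chaperone that inhibits viral replication, was not tested. It held 21.8 and 33.3 in WT, 0 and 0.748 in KO cells and 4.69 and 0 in KO+Rescue at day 2, but 0 and 3.05, 22.4 and 9.44, and 3.14 and 0 in mESC, where KO was the highest.

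**Figure D3:**
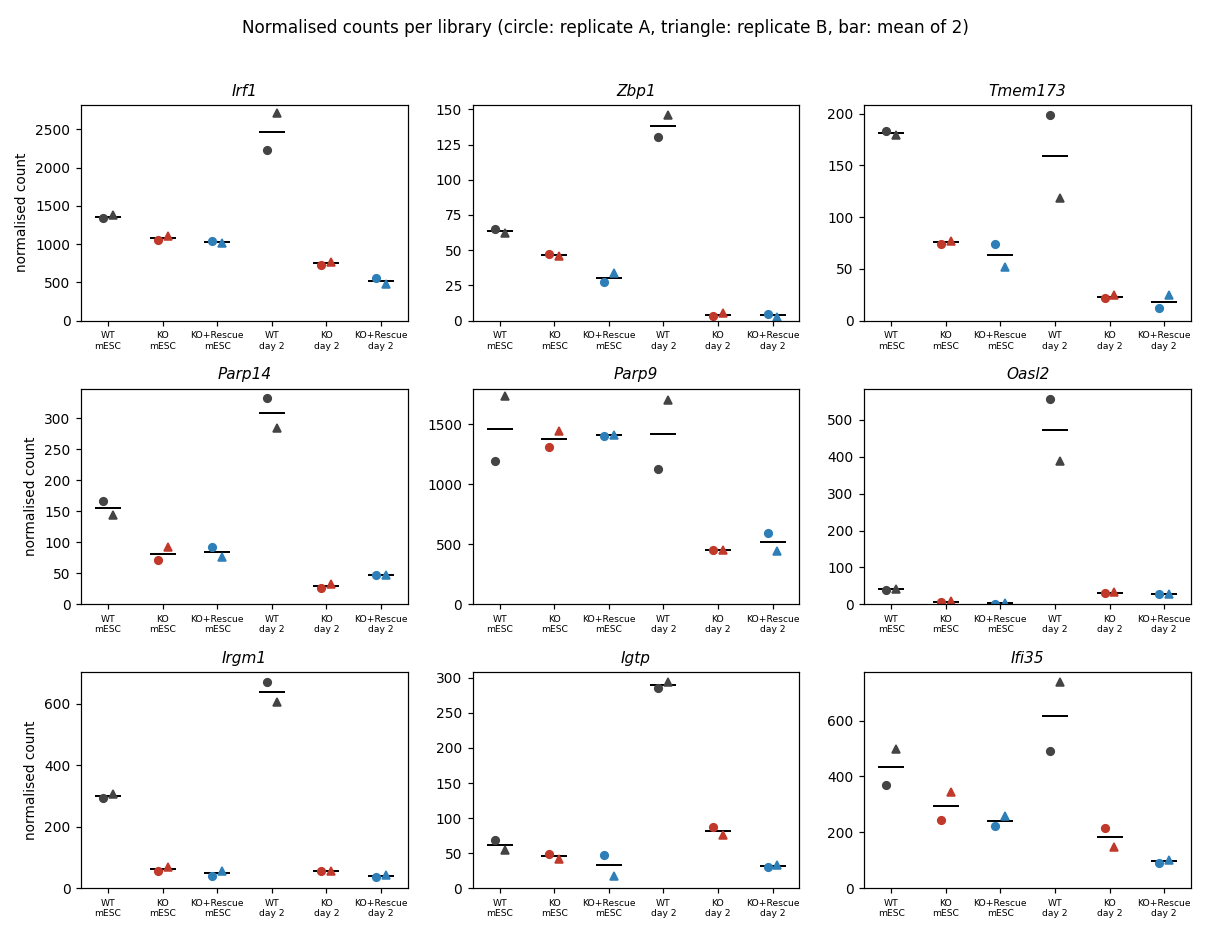
Normalised counts (vertical axes, linear from 0) of 9 members in each library, where replicate A is a circle, replicate B a triangle and a bar the mean of both, with groups along the horizontal axes. In the 9 genes both WT day 2 libraries lay above the KO and KO+Rescue day 2 libraries, and Irgm1, Oasl2, Parp14 and Tmem173 were already called lower in KO mESC.

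In mESC, of the 34 tested members 6 were lower in KO than in WT and 0 higher, where 9.48% of all tested genes were called, 6.26% as lower and 3.23% as higher. The 6 were Tmem173, Oasl2, Bst2, Parp14, Dtx3l and Irgm1. The median log2 change of the members was -0.29, against -0.04 over all tested genes. Both KO libraries lay below both WT libraries in 18 of 34 members, as in 31.6% of all tested genes. Fewer members, and fewer of all tested genes, were called without WT replicate A, KO replicate A or KO replicate B. The median of the members was then -0.29, -0.32 and -0.27. When the fit held no other groups 1 member was called, Irgm1, where 1.18% of all tested genes were called. Ifitm2 was called higher in KO mESC under the replicate block (adjusted p = 0.0289), where 7 members were lower and 23.8% of all tested genes were called.

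The difference between KO and WT was itself larger at day 2 in 4 members. The interaction of KO and stage, the day 2 change minus the mESC change, was called for Zbp1 (-4.36 ± 0.54, adjusted p = 0.00186), Irf1 (-1.39 ± 0.19, adjusted p = 0.00329), Parp14 (-2.43 ± 0.35, adjusted p = 0.00466) and Parp9 (-1.54 ± 0.30, adjusted p = 0.0259). No member was called in the other direction, and of all tested genes 1.13% were called, 0.626% with a negative and 0.502% with a positive interaction. Parp9 lost the call without WT mESC replicate A (adjusted p = 0.0764), KO mESC replicate A or B (0.0769 and 0.124), WT day 2 replicate B (0.068) or KO day 2 replicate A or B (0.137 and 0.117), while the calls of Zbp1, Irf1 and Parp14 held under every alternative. The interactions of the other 12 called at day 2 did not pass in limma. Among them Isg15 (-5.06 ± 1.23, adjusted p = 0.0796) was called by DESeq2 (0.00656), with a pseudocount of 8 (0.0103), under the replicate block (0.0303) and without KO day 2 replicate B (0.0287). Irgm1 was called by DESeq2 (adjusted p = 0.0113), and Oasl2 and Ifih1 with a pseudocount of 8 (0.0221 and 0.0462). Isg15 and Ifih1 passed the filter only through the WT day 2 libraries, which favours a negative interaction, so their calls do not add support.

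From mESC to day 2 in WT, 15 members rose and 9 fell, where 51.9% of all tested genes were called, 26.6% as higher and 25.3% as lower. In KO 5 rose and 18 fell, with a background of 60.1% (31.4% and 28.7%). In KO+Rescue 6 rose and 17 fell, with a background of 58.2% (29.2% and 29.1%). The median log2 changes of the members were 0.44, -0.61 and -0.46. Scaling the libraries to equal totals moved the median of all genes to 0.21, 0.35 and 0.34. Among the members it gave 17 higher and 6 lower in WT, 10 and 12 in KO cells and 10 and 14 in KO+Rescue. Of all 15341 tested genes it called 4965 higher and 2379 lower in WT, 6239 and 2527 in KO cells and 6169 and 2494 in KO+Rescue.

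In WT, Oasl2 had the largest fitted rise (3.49 ± 0.37, adjusted p = 5.74e-06). Rsad2 (3.43), Ifih1 (3.15) and Isg15 (3.13) passed the filter only through the WT day 2 libraries, which fixes their direction, and without them 12 members rose and 9 fell in WT, with a median of 0.22. The GTPases rose by 1.08 ± 0.23 (Irgm1), 2.22 ± 0.37 (Igtp) and 2.32 ± 0.51 (Irgm2) in WT, and none of them was called by limma in KO (-0.16, 0.84 and 0.58) or KO+Rescue (-0.27, 0.12 and -0.21). Igtp was called higher at day 2 in KO by edgeR (adjusted p = 0.0363), by DESeq2 (0.0216) and in limma with a pseudocount of 8 (0.0455), equal totals (0.0255), the replicate block (0.0381) or the KO libraries alone (0.0151). Irf1 rose in WT (0.85 ± 0.13, adjusted p = 0.000173) and fell in KO (-0.54 ± 0.13, adjusted p = 0.00414) and KO+Rescue (-0.99 ± 0.13, adjusted p = 4.09e-05). The fall in KO was -0.20 and not called with equal library totals (adjusted p = 0.332). Parp14 rose by 0.98 ± 0.25 in WT and fell by -1.44 ± 0.25 in KO and -0.81 ± 0.25 in KO+Rescue, the last not passing without KO+Rescue mESC replicate A (adjusted p = 0.0765) or day 2 replicate A (0.0566) or with equal totals (0.203).

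Other members passed the test in the same direction in all genotypes. Irf9 fell by -2.63 ± 0.21 in WT, -2.82 ± 0.21 in KO cells and -3.70 ± 0.21 in KO+Rescue. The sensor Ddx58 fell by -2.08, -2.31 and -2.70, each with a standard error of 0.16. Trim25 fell by -1.53, -1.93 and -2.28 with standard errors of 0.11, and Ifitm3 by -1.35, -1.78 and -2.13 with standard errors of 0.11. These genes were lower at day 2 in WT, KO and KO+Rescue. Bst2 rose in all genotypes, by 0.84, 1.28 and 1.55 (SE 0.15), and Ifit2 by 2.09, 2.53 and 1.45 (SE 0.39), where the rise in KO+Rescue was 1.18 and not called without mESC replicate B (adjusted p = 0.0597).

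**Figure D4:**
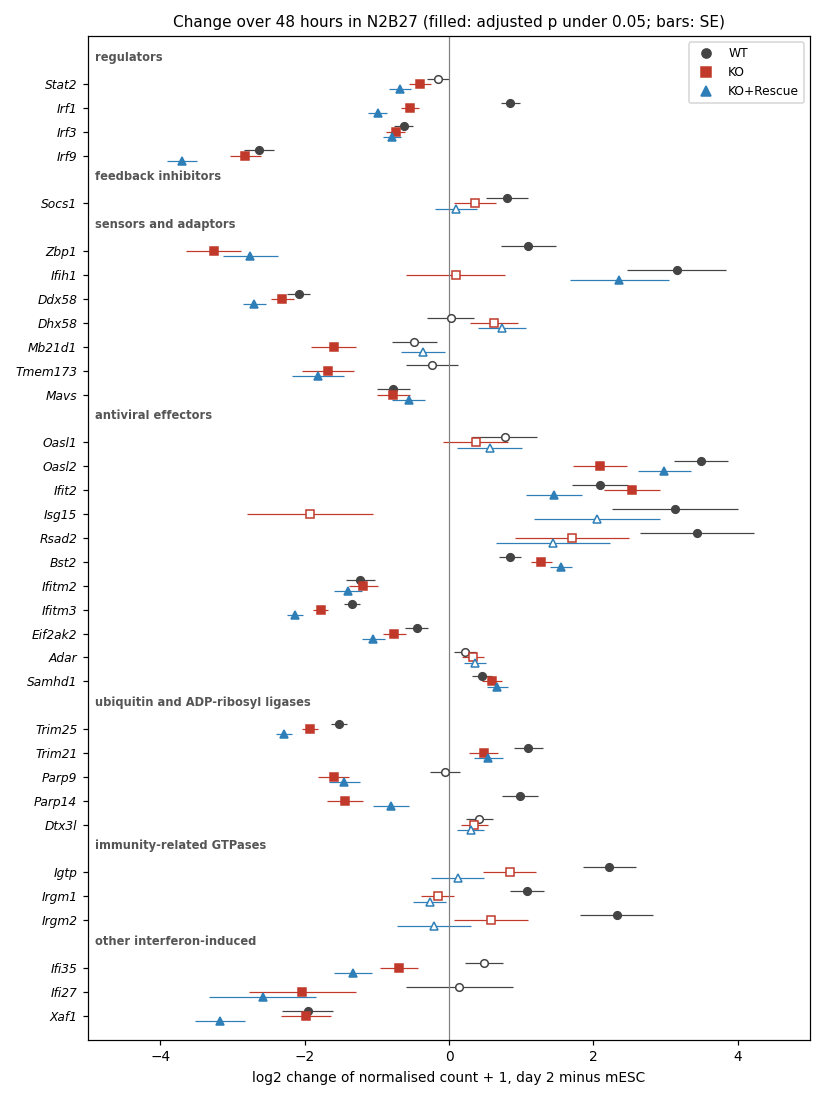
Log2 change from mESC to day 2 (horizontal axis, log2 of the normalised count plus 1) of the 34 tested members in WT (circles), KO (squares) and KO+Rescue (triangles), by role, with SE bars and filled symbols for an adjusted p under 0.05. WT points lie to the right of KO and KO+Rescue for Irf1, Zbp1, Parp14 and the GTPases, and the 3 genotypes lie together for Irf3 and Mavs.

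No tested member was called higher in KO+Rescue than in KO by limma, edgeR or DESeq2. In mESC 0 of 34 members were called between KO+Rescue and KO by limma, with 4 at an unadjusted p under 0.05, and edgeR called 0 and DESeq2 1 (Isg15, lower), where limma called 1.51% of all tested genes, 0.476% as higher and 1.04% as lower. At day 2 limma called Ifitm3 alone, lower in KO+Rescue, where 1.83% of all tested genes were called, 0.502% as higher and 1.33% as lower. edgeR called 2 members there, Ifitm3 and Igtp, and DESeq2 called 7, all lower, among them Igtp (adjusted p = 0.00377), Irgm2 (0.0196), Irf1 (0.0192) and Ifi35 (0.0325). Of all tested genes edgeR called 2.31% at day 2 and DESeq2 4.89%, and in mESC 1.04% and 2.62%. Ifitm3 held 4750 and 4270 in WT, 5440 and 5270 in KO cells and 4320 and 4310 in KO+Rescue mESC, and 1690 and 1840, 1590 and 1530, and 1040 and 938 at day 2. KO+Rescue was the lowest group at day 2 (-0.66 ± 0.11 against KO, adjusted p = 0.0123), but the call did not hold without KO replicate A or B (adjusted p = 0.171 and 0.105) or KO+Rescue replicate A or B (0.0715 and 0.157). The median change of the members between KO+Rescue and KO at day 2 was -0.22, against -0.02 over all tested genes.

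KO+Rescue against WT shares its WT libraries with KO against WT, so the values are given side by side and neither comparison bears on the other. At day 2 22 of 34 members were lower in KO+Rescue than in WT and 0 higher, where 11.1% of all tested genes were called, 7.2% as lower and 3.9% as higher. Ifih1 and Isg15 are among the 22. With Rsad2 they passed the filter only through the WT day 2 libraries and had to differ, so they do not add to the count as support. The median was -1.07, beside -0.92 for KO, both with these genes included. Without KO+Rescue replicate B the median was -0.98, and fewer members and fewer of all tested genes were called. In mESC 10 were lower and 0 higher, where 18.2% of all tested genes were called, 9.04% as lower and 9.15% as higher. Without WT replicate A or KO+Rescue replicate B fewer members and fewer of all tested genes were called in mESC. The median of the members was then -0.56 and -0.38, against -0.43 with all libraries. Irf1 was -2.25 ± 0.13 and -1.72 ± 0.13 from WT at day 2 in KO+Rescue and KO, Zbp1 -4.89 ± 0.38 and -4.80 ± 0.38, and Irgm1 -3.99 ± 0.23 and -3.50 ± 0.23. Parp14 was -2.67 ± 0.25 and -3.35 ± 0.25. None of these 4 genes was called by limma between KO+Rescue and KO at day 2 with all groups in the fit, with log2 differences of -0.53 ± 0.13 (Irf1, adjusted p = 0.07, and 0.0192 by DESeq2, 0.0212 under the replicate block and 0.0229 with only these groups), -0.09 ± 0.38 (Zbp1), -0.49 ± 0.23 (Irgm1) and 0.68 ± 0.25 (Parp14).

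Interferon transcripts were nearly absent. Of 21 listed ligand genes of types I, II and III, 18 were at 0 in all 12 libraries, among them Ifnb1 and Ifng. Ifna4 (1.5 in KO replicate B), Ifnk (1.48 in KO replicate A) and Ifnl2 (0.725 in WT replicate B) had values above 0 at day 2 in a single library each. A single read was worth 0.605 to 0.748 normalised counts in the WT and KO day 2 libraries, so these were 1 or 2 reads, and a count of 0 allows up to 3 reads in a library.

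The receptors and kinases were expressed in all groups. Of the 9 genes of this list, all tested, 2 were higher and 0 lower in KO at day 2, where 1.57% of all tested genes were called higher and 3.64% lower. Both that were higher encode the type I receptor. Ifnar1 held 1620 and 1470 in WT, 1990 and 1950 in KO cells and 1380 and 1270 in KO+Rescue mESC, and 1390 and 1440, 1960 and 2020, and 1150 and 1240 at day 2. Ifnar2 held 283 and 285, 424 and 440, and 283 and 358 in mESC, and 223 and 225, 366 and 336, and 258 and 293 at day 2. In both genes KO was the highest group at both stages. In mESC Ifnar2 was called higher in KO than in WT (0.60), but not with equal library totals (adjusted p = 0.169). Ifnar1 was called lower in KO+Rescue than in KO, by -0.57 in mESC and -0.74 at day 2. None of these calls held when 1 of the compared libraries was left out. At day 2 KO lay above WT by 0.49 ± 0.12 for Ifnar1 (adjusted p = 0.0269) and 0.64 ± 0.17 for Ifnar2 (adjusted p = 0.0418). Neither call held without WT replicate A or B or KO replicate A or B (adjusted p = 0.0556 to 0.206 for Ifnar1 and 0.0893 to 0.257 for Ifnar2), nor with equal library totals (0.263 and 0.141). Ifnar1 and Ifnar2 lie on distal chromosome 16 (91485032 to 91510523 and 91372783 to 91405589) beside Il10rb and Ifngr2, which were not called at day 2 (0.46 ± 0.36 and 0.14 ± 0.21). Jak1, Tyk2 and Ifngr1 were at -0.13, 0.11 and 0.23 and were not called.

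**Figure D5:**
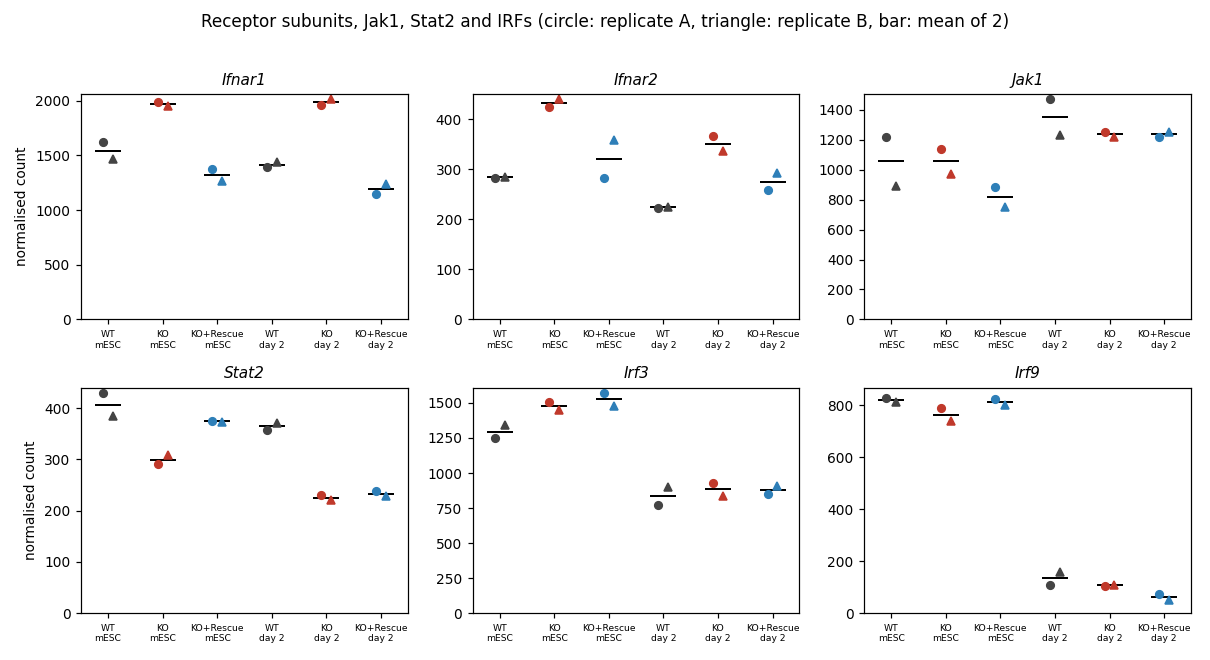
Normalised counts (vertical axes, linear from 0) of the receptor genes Ifnar1 and Ifnar2 and of Jak1, Stat2, Irf3 and Irf9 in each library, where replicate A is a circle, replicate B a triangle and a bar the mean of both, with groups along the horizontal axes. KO lies highest in both receptor genes, Stat2 is lowest in KO and KO+Rescue at day 2, and Irf9 is low in all day 2 groups.

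Of the 16 tested genes of a wider list of sensing pathway components, 0 were called between KO and WT at day 2 by limma, with 3 at an unadjusted p under 0.05 and a median of -0.15. Over all tested genes limma called 5.21%, and the median was 0.02. edgeR called 1 (Rnaseh2c) and DESeq2 2 (Rnaseh2c and Myd88). The list holds the kinase Tbk1 (-0.01 ± 0.13), the adaptors Myd88 (-0.57 ± 0.16, adjusted p = 0.0639), Traf3 and Ticam1 (-0.18 and -0.31), the DNA sensor Aim2 (-0.29 ± 0.22) and the nuclease Trex1 (-0.39 ± 0.23). In mESC the RNA receptor gene Tlr3 was lower in KO, at 20.2 and 12.2 in WT against 2.24 and 0 in KO. That call (adjusted p = 0.018) did not hold without WT replicate A (adjusted p = 0.129) or KO replicate B (0.166). The ribonuclease subunit gene Rnaseh2c was higher in KO mESC, at 1590 and 1880 against 932 and 1200 in WT (0.71 ± 0.14, adjusted p = 0.00921, and 0.0841 and 0.122 without WT replicate A and KO replicate B).

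Among 34 further interferon-stimulated genes, 18 were tested, and 5 were lower and 0 higher in KO at day 2, with a median of -0.71. Of all tested genes 3.64% were called lower and 1.57% higher, and their median was 0.02. Lgals3bp and Trim30a passed the filter only through the WT day 2 libraries, which fixed their direction. They are not among the 5 but enter the median. Nmi, the partner of Ifi35, held 492 and 649 in WT, 92.3 and 62.9 in KO cells and 113 and 96.8 in KO+Rescue at day 2 (-2.87 ± 0.29 between KO and WT, adjusted p = 7.34e-05). The GTPase gene Tgtp1 held 26.6 and 36.2, 3.69 and 0, and 0 and 0.939 (-3.89 ± 0.76, adjusted p = 0.00972, and 0.121 without KO replicate B). Both were low in KO and KO+Rescue alike. Phf11d held 82.3 and 127 in WT, 42.1 and 36.7 in KO cells and 86.8 and 92.1 in KO+Rescue (-1.36 ± 0.22 between KO and WT, adjusted p = 0.0027, and 0.0652 when the fit held no other groups), and it was called higher in KO+Rescue than in KO (1.17 ± 0.22, adjusted p = 0.0176). The latter call was lost without KO replicate A or B (adjusted p = 0.122 and 0.159) or KO+Rescue replicate A or B (0.117 and 0.147). Pml, which organises nuclear bodies, was at -0.92 ± 0.18 (adjusted p = 0.00861, and 0.0534 without WT replicate A and 0.105 without KO replicate A). Znfx1, an RNA helicase gene, was at -0.77 ± 0.18 (adjusted p = 0.0285, and 0.173, 0.252 and 0.0677 without WT replicate A, KO replicate A and KO replicate B). The remaining 13, among them Oas1a, Oas1g, Oas3 and Herc6 (-0.37, -0.31, -0.17 and -0.19), were not called at day 2. In mESC Znfx1 was also called lower in KO (-0.67). That call did not hold with only the KO and WT libraries (adjusted p = 0.11), without the filter (0.0643), or without WT replicate A or either KO library. Genes with close relatives, such as the Oas, Ifit, Ifitm and GTPase families, may share reads.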

How the data were processed

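RNA sequencing was analysed in 12 libraries, 2 for each of 6 groups. The authors deposited normalised read counts per gene, a signal obtained by trimming with Trimmomatic, paired-end alignment to mm10 with STAR, counting of read pairs with featureCounts, removal of reads from the Y chromosome and division by DESeq2 size factors. Versions are not given in the sources used here. Within each library 100% of values were whole multiples of 1 read (tolerance 0.001), so reads were recovered. No column was left out. The codes 39 and 39R in the column names were read as KO and KO+Rescue, which no label states, and the letters A and B name the libraries.

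Genes with a mean of at least 10 (15341) were tested on the log2 of the normalised count plus 1 in limma 3.58.1 (R 4.3.3) with 6 group means and a prior variance that follows intensity (6 residual and 6.92 prior degrees of freedom). Tests were two-sided, and p-values were adjusted by Benjamini and Hochberg over all tested genes. The text names every regulator, every member called in KO against WT, in the interaction or in KO+Rescue against KO, and pathway genes called in KO against WT, beside others by value, except a pathway gene that is not reported here. The members, lists and rule were chosen with earlier results of these data known. Alternatives were a pseudocount of 8, no filter, edgeR 4.0.16 and DESeq2 1.42.0 on recovered reads, equal library totals, a replicate block, the compared groups alone, and each library left out. The fit was tested on simulated data. Floors of 3 reads cover counting error only. Promoter windows and positions are from RefSeq (GRCm38.p6).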

Additional observations from a re-analysis of the deposited data

Results flagged for a closer look

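These 6 results were set apart because the difference between KO and WT changed between mESC and day 2 by a test of that change itself. Among the members, the interaction of KO and stage (log2, day 2 change minus mESC change) was -4.36 for Zbp1, -1.39 for Irf1, -2.43 for Parp14 and -1.54 for Parp9. Among the further interferon-stimulated genes it was -2.45 for Nmi (adjusted p = 0.0126) and -1.73 for Phf11d (adjusted p = 0.0157). In all 6 the KO day 2 libraries lay below both WT day 2 libraries. In mESC the KO libraries of Irf1, Zbp1, Parp14 and Nmi lay below WT, those of Parp9 lay within the WT range, and those of Phf11d (2760 and 2850) lay above WT (1840 and 2550). Nmi lost the call without KO mESC replicate A or B (adjusted p = 0.055 and 0.0515) or KO day 2 replicate B (0.0785). Phf11d lost it without WT mESC replicate A (0.0565), KO mESC replicate A or B (0.0626 and 0.0851), or KO day 2 replicate A or B (0.065 and 0.0901).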

How the results depend on the processing

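The members called in each comparison kept their direction under the alternatives, and the counts moved as follows. For KO against WT in mESC (6 members) only the groups compared gave 1, no filter 4, equal totals 7, the replicate block 8 (1 of them higher) and leaving out 1 library 2 to 6. For KO against WT at day 2 (16) the alternatives gave 13 to 20, and leaving out 1 library 8 to 13. For KO+Rescue against KO in mESC (0) DESeq2 gave 1 and the replicate block 2, and at day 2 (1) edgeR gave 2, DESeq2 7, the replicate block 8, only the groups compared 8 and leaving out 1 library 0. For KO+Rescue against WT in mESC (10) no filter gave 6, equal totals 18, the replicate block 17, only the groups compared 3 and leaving out 1 library 2 to 10, and at day 2 (22) leaving out 1 library gave 13 to 22. For KO+Rescue against KO the replicate block called 3.81% of all tested genes in mESC and 7.71% at day 2. Only the groups compared gave 15.3% at day 2. A pseudocount of 8 gave 7 interactions for 4, with 1.36% of all tested genes called. It added Isg15, Ifih1 and Oasl2. Of these, Isg15 and Ifih1 passed the filter only through the WT day 2 libraries and do not add support. Equal totals shifted the median of all genes in KO against WT to -0.25 in mESC and -0.09 at day 2. The share of all tested genes called moved too. For KO against WT in mESC (9.48%) it was 1.18% with only the groups compared and 3.7% without the filter. Equal totals gave 10.5% there and the replicate block 23.8%. For KO against WT at day 2 (5.21%) the alternatives gave 2.29% to 10.6%. For KO+Rescue against WT in mESC (18.2%) no filter gave 5.98%, equal totals 29.7%, the replicate block 30.3% and only the groups compared 2.26%. Irf3, never called, changed sign between KO and WT: -0.02 in mESC and -0.03 at day 2 with equal totals, and -0.03 to 0.19 at day 2 when 1 library was left out (-0.03 without WT replicate A and 0.00 without KO replicate A). The cause of these changes was not tested. Of the values of single genes under alternatives, 1426 stayed on their side of the threshold, 255 no longer passed it and 4 changed sign. This tally follows only the regulators and genes called by limma with all groups in the fit. Other members called only under an alternative, such as Oasl1, Trim21 and Ifi27 at day 2, are not in it. The letters A and B are not said to pair libraries, and the A minus B differences of the groups correlated between -0.05 and 0.41. Calls under the replicate block, here and above, are therefore given only as an alternative and do not add support. With 2 libraries a group, small differences in low genes could not be detected.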
